A study of Mus musculus with 6 samples.

Results

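The miR-7 family was measured in the small RNA of small extracellular vesicles (sEV) released by cochlear explants, cultured strips of the inner ear that hold its sensory epithelium. Its members were taken by name, as all rows of the count table that begin with mmu-miR-7a- or mmu-miR-7b-, and 4 of the 810 miRNAs counted met this rule: mmu-miR-7a-5p, mmu-miR-7a-1-3p, mmu-miR-7a-2-3p and mmu-miR-7b-5p. The family was chosen by the measured fold change of mmu-miR-7b-5p, the lowest of all miRNAs tested between the groups, so the values of mmu-miR-7b-5p are given as a description with no test, and the question put to the data was whether mmu-miR-7a follows it. The explants came from ICR mice at postnatal day 3, had the spiral ganglion (the neurons of the cochlea) dissected away, and were kept in medium with serum from which vesicles had been removed by ultracentrifugation. Cis-sEV came from explants treated with 50 µM cisplatin, a chemotherapeutic that damages hair cells, for 48 h (3 libraries), and Ctrl-sEV came from explants that received PBS alone over the same time (3 libraries), each library pooling the vesicles of about 80 explants.

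miR-7 is one of the oldest miRNAs of animals and is known for its high level in neurons and in hormone-secreting cells, where it acts on transcripts of signalling and secretory genes. In the brain it sits in a circuit of noncoding RNAs: the circular RNA Cdr1as carries many miR-7 sites and stabilizes the miRNA, while the long noncoding RNA Cyrano (Oip5os1) pairs with it almost end to end and triggers its destruction, a route called target-directed degradation. A miRNA is cut from a hairpin as a duplex of 2 strands, of which the guide strand (for miR-7 the 5p arm) is loaded into Argonaute and the other, the passenger strand (3p arm), is mostly discarded.

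The 2 guides are shown first because the comparison turns on telling them apart. Each is written 5′ to 3′ as listed by RefSeq for GRCm38.p6 and by the count table, which agreed for all 4 members, with the seed (bases 2 to 8, the part that selects targets) in capitals.
mmu-miR-7a-5p: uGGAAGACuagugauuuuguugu
mmu-miR-7b-5p: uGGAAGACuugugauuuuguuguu
Counted from 1 at the 5′ end, the guides differ by A10U over the first 23 bases (mmu-miR-7a-5p first), and mmu-miR-7b-5p is listed with 1 more base at its 3′ end. They share their seed, and no other row of the table with a listed sequence (809 rows) carries it.

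The family has 3 genes in GRCm38, and their hairpins are shown because only the 3p arms tell the mmu-miR-7a genes apart. The mature arms are in capitals.
Mir7-1: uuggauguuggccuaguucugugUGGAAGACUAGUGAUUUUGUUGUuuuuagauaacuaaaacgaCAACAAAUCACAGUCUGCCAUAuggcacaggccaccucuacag
Mir7-2: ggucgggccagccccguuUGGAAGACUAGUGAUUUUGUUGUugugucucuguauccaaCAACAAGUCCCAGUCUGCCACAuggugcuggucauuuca
Mir7b: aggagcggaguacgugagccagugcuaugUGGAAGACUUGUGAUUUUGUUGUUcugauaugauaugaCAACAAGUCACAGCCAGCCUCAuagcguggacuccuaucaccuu
Mir7-1 lies on the minus strand at chr13:58392779-58392886, in an intron of Hnrnpk, which encodes an RNA-binding protein and is transcribed from the same strand. Mir7-2 lies on the plus strand at chr7:78888277-78888373 and overlaps no other gene of the GENCODE M21 annotation; its nearest protein-coding neighbours are Det1 and Aen. Mir7b lies on the plus strand at chr17:56242988-56243098, also outside other genes, between Dpp9 and Fem1a. The guide of Mir7-1 and Mir7-2 is the same sequence, so reads of mmu-miR-7a-5p cannot be divided between these genes. Their passenger strands, mmu-miR-7a-1-3p and mmu-miR-7a-2-3p, differ at 3 of 22 positions (A7G, A10C and U21C, mmu-miR-7a-1-3p first). The 3p arm of Mir7b was not analysed here.

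The site of Cyrano is shown because it bears on the base that separates the guides. In the 8300-base transcript of 1700020I14Rik, which RefSeq lists as Oip5os1, the site lies in 1 exon at chr2:119602136-119602161 on the plus strand of GRCm38, and the bases that pair with the guides are in capitals, of which the first A pairs with base 24, held by mmu-miR-7b-5p alone.
Cyrano site: AACAACAAAATCACcaatGTCTTCCA
By complementarity alone, with G-U pairs not counted, bases 1 to 8 and 11 to 23 of mmu-miR-7a-5p (21 of its 23 bases) and bases 1 to 8 and 11 to 24 of mmu-miR-7b-5p (22 of 24) pair with this site. Base 10, where the guides differ, falls in the stretch between these blocks, which was not counted as paired for either guide. That stretch of the site holds letters complementary to base 10 of each guide, so whether base 10 pairs is not settled here. The 7-base seed match GTCTTCC, searched on the transcript strand only, occurred in 13.8% of the 141767 GENCODE M21 transcripts and 2 times in the Cyrano transcript. Both blocks, bases 11 to 23 and 1 to 8 of mmu-miR-7a-5p with at most 8 bases between them, were found in 1 of these transcripts, that of Cyrano. These are matches of letters, and no binding was measured.

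Depth differed between the groups, with 1722359 to 1794175 miRNA reads per Cis-sEV library against 528952 to 718597 per Ctrl-sEV library, so a miRNA without reads may still be present at up to 1.42 to 1.59 CPM in Cis-sEV and at up to 4.19 to 7.30 CPM in Ctrl-sEV, which is what 3 reads are worth. CPM are reads brought to a common library total, here scaled further by TMM factors, which edgeR sets so that most miRNAs match between libraries. Among the 353 miRNAs that passed a minimum of reads, edgeR's quasi-likelihood test called 83 higher (23.5%) and 23 lower (6.52%) in Cis-sEV. A call needed a Benjamini-Hochberg adjusted p of 0.05 or less together with a log2 fold change of 1 or more in size. With total miRNA reads in place of TMM these numbers were 97 and 11, and with the reads as deposited, without any scaling, 173 and 0. For 37.7% of the tested miRNAs the scaled CPM of each Cis-sEV library exceeded those of all Ctrl-sEV libraries, and for 12.5% the reverse held. PCR duplicates could not be recognised, so intervals and floors cover counting error only. Fewer vesicles and less of a miRNA per vesicle cannot be told apart in these counts, which are all relative to the miRNA reads of a library. The cluster that marks sensory hair cells, miR-183-5p, miR-96-5p and miR-182-5p, was summed as a description. It took 50048 to 73377 scaled CPM per Cis-sEV library and 55946 to 73189 per Ctrl-sEV library. No limit was set for this sum, so it is no test of tissue identity.

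mmu-miR-7b-5p, the guide of Mir7b, was low in every Cis-sEV library and varied widely in Ctrl-sEV. Its reads numbered 25, 14 and 22 in Cis-sEV replicates 1, 2 and 3 and 51, 80 and 206 in Ctrl-sEV replicates 1, 2 and 3, the order kept below. All Cis-sEV libraries thus had fewer reads than all Ctrl-sEV libraries although they were sequenced more deeply. In scaled CPM it stood at 12.6, 7.41 and 10.4 in Cis-sEV and at 124, 112 and 425 in Ctrl-sEV. The means were 10.1 ± 2.59 CPM (SD, n = 3) and 220.3 ± 178 CPM (SD, n = 3), and Ctrl-sEV replicate 3 lay far above its fellows. Fitted on the log2 scale, the change was -4.43 (standard error 1.10), or 21.6-fold lower in Cis-sEV, and it was -3.42 without Ctrl-sEV replicate 3. With the reads as deposited it was -2.46, so the direction did not rest on the scaling. Among all miRNAs, mmu-miR-7b-5p held rank 118 by mean CPM in Ctrl-sEV and rank 355 in Cis-sEV.

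Several miRNAs of blood and serum were also lower in Cis-sEV. Of the 11 listed, 8 have counts and 6 were tested, of which 3 fell, where 6.52% of all tested miRNAs did, 0 rose and 3 did not pass, with a median log2 fold change of -1.97 against 0.44 over all tested miRNAs. As the list was chosen with earlier results of these data known, these numbers are a description. Those that fell by edgeR's quasi-likelihood test were miR-122-5p, the main miRNA of hepatocytes (-2.78, standard error 0.21, adjusted p = 0.00110), miR-486a-5p (-3.47, standard error 0.72, adjusted p = 0.0111) and miR-451a (-1.15, standard error 0.30, adjusted p = 0.0219), both abundant in erythrocytes. The direction of miR-451a turned with the scaling, as its reads numbered 2235, 2160 and 1939 in Cis-sEV against 1170, 1964 and 708 in Ctrl-sEV, and without any 1 of the Cis-sEV libraries or Ctrl-sEV replicate 2 the list had 2 calls in place of 3. miR-486a-5p has the same sequence as miR-486b-5p, so how their reads were divided is uncertain. Summed over the list, Cis-sEV libraries held 5260 to 5960 scaled CPM, against 11255 to 15028 for Ctrl-sEV libraries. Most of this gap lay in miR-122-5p. Its mean level was 7410 ± 1316 over Ctrl-sEV libraries but 1075 ± 167 over Cis-sEV libraries (SD, n = 3). miR-16-5p went the other way, with a log2 fold change of 0.31, but its groups overlapped and it was not called. The means of miR-223-3p and miR-144-3p, both scarce and untested, were also higher for Cis-sEV. The list's erythrocyte marker miR-144-3p had 2 reads in Cis-sEV replicate 1 and 0 in the other libraries. The leukocyte marker miR-223-3p had at most 28 reads in any library. The part of blood and serum RNA in the difference of mmu-miR-7b-5p was not tested.

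mmu-miR-7a-5p, the guide of Mir7-1 and Mir7-2, did not follow mmu-miR-7b-5p. Its reads numbered 1730, 1828 and 1706 in Cis-sEV and 173, 126 and 497 in Ctrl-sEV. Before scaling, the counts of the deeper Cis-sEV libraries were thus all above those of Ctrl-sEV. In scaled CPM it stood at 869, 967 and 806 in Cis-sEV and at 421, 176 and 1026 in Ctrl-sEV, so that the groups overlapped through Ctrl-sEV replicate 3. The means were 881 ± 81.4 CPM (SD, n = 3) and 541 ± 437 CPM (SD, n = 3). The log2 fold change, 0.70 with a standard error of 0.60, did not pass the test (edgeR, adjusted p = 0.491). Its 95% interval ran from -0.73 to 2.13. It does not reach -4.43, the fitted value of mmu-miR-7b-5p, which was picked as the lowest of all and may overstate the fall. The interval includes no change, a small decrease and an increase beyond the fold limit. Relative to the median of all tested miRNAs the change was 0.27.

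Ctrl-sEV replicate 3 decided the call of mmu-miR-7a-5p. Without it the change rose to 1.72 (standard error 0.40, edgeR adjusted p = 0.0266) and mmu-miR-7a-5p was called higher in Cis-sEV. With the other libraries left out in turn, the value ran no higher than 0.90 and mmu-miR-7a-5p was not called. Replicate 3 was the highest Ctrl-sEV library for both guides.

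**Figure D1:**
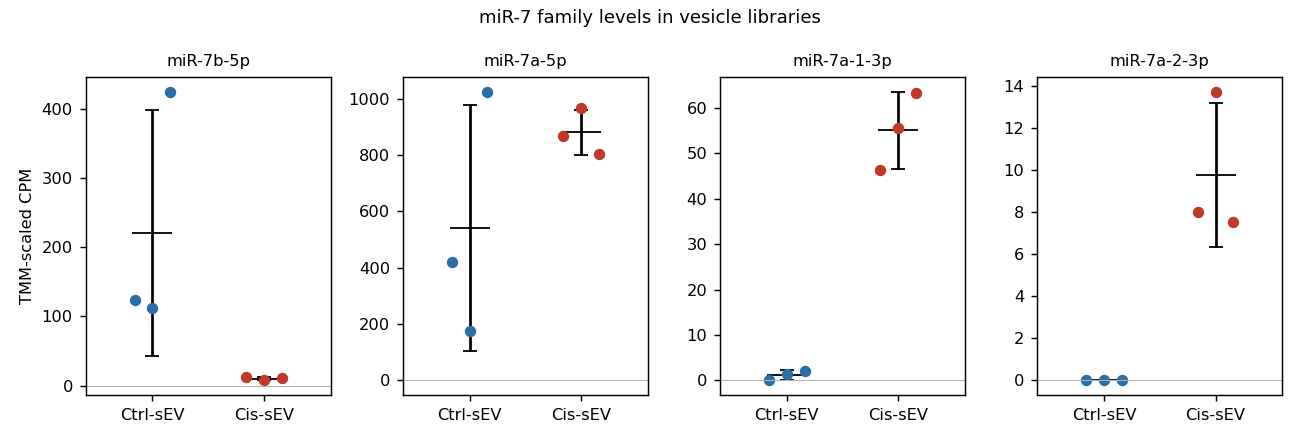
Level of each miR-7 family member in TMM-scaled CPM (vertical axes, one scale per panel) in Ctrl-sEV (blue) and Cis-sEV (red). Points are libraries, in the order of replicates 1 to 3, and bars give the mean ± SD (n = 3). mmu-miR-7b-5p is at 7.41 to 12.6 CPM in Cis-sEV, below all Ctrl-sEV libraries, while the groups overlap for mmu-miR-7a-5p and both 3p arms are at or near 0 in Ctrl-sEV.

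The balance between the guides can be read within a library, where scaling plays no part. mmu-miR-7b-5p made up 1.42% of the reads of both guides in Cis-sEV replicate 1 (95% Wilson interval 0.967 to 2.09%), 0.760% in replicate 2 (0.453 to 1.27%) and 1.27% in replicate 3 (0.842 to 1.92%). In Ctrl-sEV it made up 22.8% in replicate 1 (17.8 to 28.7%), 38.8% in replicate 2 (32.4 to 45.6%) and 29.3% in replicate 3 (26.1 to 32.8%). The intervals of the groups lay far apart, and replicate 3 of Ctrl-sEV, which stood out in the level of both guides, did not stand out in their ratio. The mean share in Cis-sEV was 1.15 ± 0.348% (SD, n = 3), against 30.3 ± 8.08% (SD, n = 3) for Ctrl-sEV. On the log2 scale the mean ratio of mmu-miR-7b-5p to mmu-miR-7a-5p reads was -6.47 ± 0.49 (SD, n = 3) and -1.23 ± 0.55 (SD, n = 3), a difference of -5.24. This ratio holds the miRNA by which the family was chosen and was given no test.

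As the guides differ by 1 base within their shared length, some reads of the abundant guide could be counted on the rare one. In Cis-sEV at most 1.45 reads of mmu-miR-7b-5p were counted for every 100 of mmu-miR-7a-5p. If all of these were misassigned, the same rate would give 2.50, 1.82 and 7.18 of the 51, 80 and 206 reads of mmu-miR-7b-5p in the Ctrl-sEV libraries. Taking them off in Ctrl-sEV, an alternative chosen after seeing the data, moved the log2 ratio of the group means from -4.44 to -4.39. How mismatched reads were counted is not given in the sources used here.

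The summed guides, which share their seed and hence most predicted targets, differed in mean by less than the spread of the Ctrl-sEV libraries. Together they had 882, 975 and 816 scaled CPM in Cis-sEV and 545, 288 and 1451 in Ctrl-sEV, and the groups overlapped. The means were 891 ± 79.7 CPM (SD, n = 3) and 761 ± 611 CPM (SD, n = 3). The log2 fold change of the sum was 0.23 (standard error 0.57), given as a description since the sum includes mmu-miR-7b-5p. In both groups mmu-miR-7a-5p held most of the reads that carry this seed.

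The passenger strands of mmu-miR-7a were found almost only in Cis-sEV. Both passed the minimum of reads through Cis-sEV alone, so the direction of any call among them was fixed by that filter. They were called higher after it, but with no filter neither passed the test (edgeR adjusted p = 0.0602 for mmu-miR-7a-1-3p and 0.0634 for mmu-miR-7a-2-3p), and their reads are given as a description. mmu-miR-7a-1-3p, from Mir7-1, had 92, 105 and 134 reads in Cis-sEV and 0, 1 and 1 in Ctrl-sEV. Its level was 55.0 ± 8.54 CPM (SD, n = 3) in Cis-sEV, and the ratio of the groups was 44.5 (95% Clopper-Pearson limits for counting error, 12.2 and 369). The call after the filter was also lost without Cis-sEV replicate 1 or replicate 2.

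mmu-miR-7a-2-3p, from Mir7-2, had 16, 26 and 16 reads in Cis-sEV and 0 in each Ctrl-sEV library. Set against a floor of 3 reads summed over Ctrl-sEV, it was at least 5.19-fold higher in Cis-sEV by its reads. The bound was 2.89-fold without Ctrl-sEV replicate 2, where the floor stands over fewer reads. Without any 1 of the Cis-sEV libraries it did not pass the minimum of reads and was not tested. Within Cis-sEV the arm of Mir7-1 outnumbered that of Mir7-2 in each library, by 5.75, 4.04 and 8.38 to 1.

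The 3p arms were scarcer in Ctrl-sEV also relative to their own guide. Of all mmu-miR-7a reads, the 3p arms made up 5.88% (95% Clopper-Pearson interval 4.84 to 7.05%), 6.69% (5.62 to 7.89%) and 8.08% (6.88 to 9.42%) in the Cis-sEV libraries. In Ctrl-sEV they made up 0 of 173 reads in replicate 1, which allows a share of up to 1.73%, 0.787% in replicate 2 (0.0199 to 4.31%) and 0.201% in replicate 3 (0.00508 to 1.11%). The intervals of the groups did not overlap. The mean share was 6.88 ± 1.12% (SD, n = 3) and 0.329 ± 0.409% (SD, n = 3), a difference that a two-sided exact permutation test gave p = 0.1, the smallest that 3 libraries against 3 allow. At the share found in Cis-sEV, 12.8, 9.31 and 36.7 reads of the 3p arms would have been counted in the Ctrl-sEV libraries. Few miRNAs of the Ctrl-sEV libraries had 9 to 31 reads, a range that takes in 12.8 and 9.31 but not 36.7. They numbered 13, 11 and 20, against 163, 166 and 159 in Cis-sEV. With 1 to 8 reads there were 46, 45 and 82 miRNAs in Ctrl-sEV, against 104, 135 and 129 in Cis-sEV. In all, 258, 266 and 311 miRNAs were detected in Ctrl-sEV, against 586, 603 and 601 in Cis-sEV. The part of these differences in the share of the 3p arms was not tested.

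**Figure D2:**
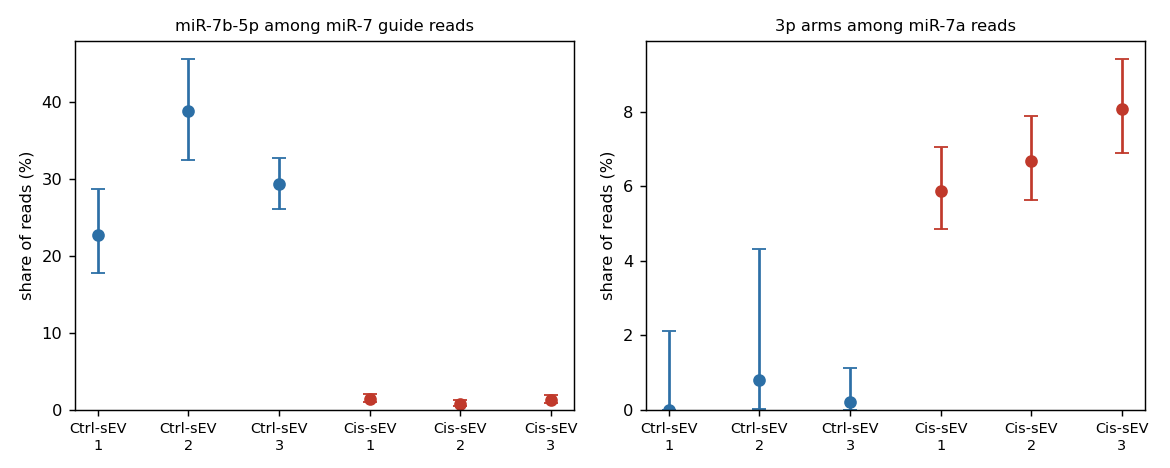
Share of mmu-miR-7b-5p among the reads of both miR-7 guides (left) and share of the 3p arms among all mmu-miR-7a reads (right), in percent, for each Ctrl-sEV (blue) and Cis-sEV (red) library, with 95% Wilson (left) and Clopper-Pearson (right) intervals for counting error. At 0 reads, in Ctrl-sEV replicate 1, the bar reaches above the limit that 3 reads set. mmu-miR-7b-5p takes 22.8 to 38.8% in Ctrl-sEV and 0.760 to 1.42% in Cis-sEV, and the 3p arms take at most 0.787% in Ctrl-sEV and at least 5.88% in Cis-sEV.

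Set among the 353 tested miRNAs, the members lay far apart. mmu-miR-7b-5p had the lowest log2 fold change of all, by which the family was chosen. mmu-miR-7a-5p was on rank 199 from the lowest, near the middle. mmu-miR-7a-1-3p and mmu-miR-7a-2-3p were on ranks 293 and 300, where fitted values of miRNAs with few or 0 reads in Ctrl-sEV depend on the prior count that edgeR adds.

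**Figure D3:**
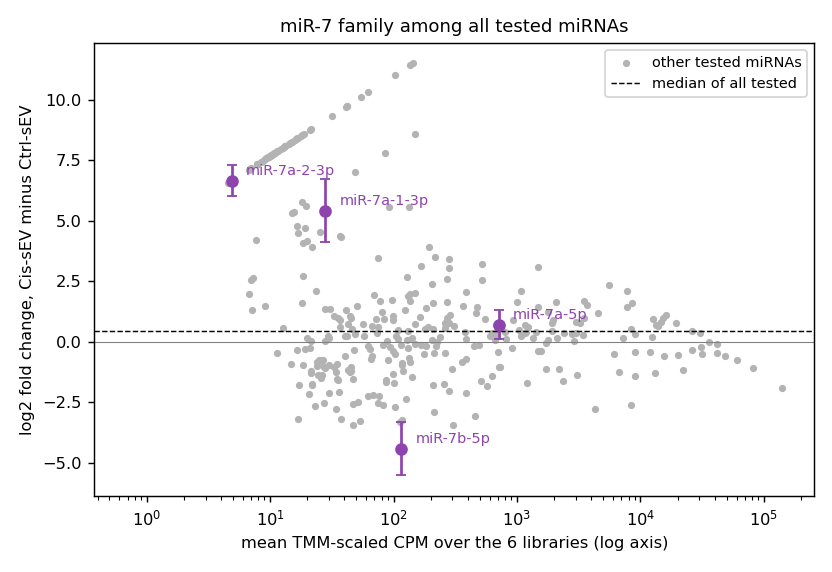
Fitted log2 fold change, Cis-sEV against Ctrl-sEV (vertical axis) against the mean TMM-scaled CPM over the 6 libraries (horizontal log axis) for the 353 tested miRNAs, with the miR-7 family in purple (bars, standard error). The dashed line is the median, 0.44, and the upper diagonal row is formed by miRNAs with 0 reads in Ctrl-sEV, whose fitted values are no estimate of a fold. mmu-miR-7b-5p lies lowest and mmu-miR-7a-5p near the median.

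The miRNAs whose profile was most like that of mmu-miR-7b-5p were named by Pearson correlation of log2(scaled CPM + 1) over the 6 libraries, which mostly follows the gap between the groups and the high Ctrl-sEV replicate 3. The highest was miR-181b-5p (r = 0.994), with 3401, 3276 and 3575 reads in Cis-sEV and 1517, 2615 and 2842 in Ctrl-sEV, or 1710.1 ± 22.6 and 4403 ± 1267 scaled CPM (SD, n = 3). Next came miR-125b-1-3p (r = 0.983), a predicted miRNA with the mature sequence gGGGGAUUagcucagcug (r = 0.979), miR-485-5p (r = 0.979) and miR-181a-1-3p (r = 0.974), whose groups did not overlap in scaled CPM either. In reads as deposited, however, miR-181b-5p was higher in Cis-sEV, and among the others the groups overlapped for all but the predicted miRNA. Their differences were smaller than that of mmu-miR-7b-5p, with log2 fold changes from -3.09 for the predicted miRNA to -1.36 for miR-181b-5p. By rank correlation 2 of these 5 stayed among the 5 most alike. For mmu-miR-7a-5p the correlation with mmu-miR-7b-5p was -0.35, on rank 146 of 352.

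Other miRNAs known to be destroyed through their targets were looked up beside the guides. The list holds 7, with both miR-7 guides, of which 6 were tested: apart from mmu-miR-7b-5p, by which the family was chosen, 5 were not called in either direction, and as 6.52% of all tested miRNAs were called lower, this count shows nothing particular to the list. Without Ctrl-sEV replicate 3, 2 were called higher. The median log2 fold change was 0.70, beside 0.44 over all tested miRNAs. miR-30c-5p had 1825, 821 and 1515 reads in Cis-sEV and 33, 290 and 141 in Ctrl-sEV, and its change of 1.41 on the log2 scale (standard error 0.65) had an adjusted p of 0.153 from edgeR, although the groups did not overlap. miR-29b-3p, which a site in the Nrep transcript destabilizes, had 10, 27 and 44 reads against 0, 0 and 7, and a change of 1.47 on that scale (standard error 1.48, edgeR adjusted p = 0.580). miR-30b-5p and miR-322-5p had log2 fold changes of 0.70 and 0.22. All 4 missed the threshold over the 6 libraries.

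miR-671-5p, which guides the cleavage of Cdr1as, had 89, 77 and 113 reads in Cis-sEV and 105, 0 and 100 in Ctrl-sEV. It changed by -1.73 on the log2 scale (standard error 1.76, adjusted p = 0.583 by edgeR), with a single Ctrl-sEV library at 0 reads. Without that library, Ctrl-sEV replicate 2, it was called lower. miR-671-3p, its other arm, had 6, 0 and 12 reads against 39, 52 and 0 and was not tested.

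Among neuronal and endocrine miRNAs, the company in which miR-7 is usually found, the direction of mmu-miR-7b-5p was not shared by any that passed the test. Of the 17 on the list, 16 have counts and 13 were tested. Besides mmu-miR-7b-5p, 5 were called higher, where 23.5% of all tested miRNAs were, and 7 did not pass. Of these 5, miR-124-3p, miR-129-2-3p, miR-153-3p and miR-212-3p passed the minimum of reads through Cis-sEV alone, so they could only be called higher. Their direction thus says nothing beside that of mmu-miR-7b-5p. Neither their count nor the list's median log2 fold change, 1.45 beside 0.44 over all tested miRNAs, supports a rise of the list. Without Cis-sEV replicate 1, 3 were called. miR-218-5p, a miRNA of motor neurons and also of the inner ear, rose with 23396, 21557 and 23407 reads in Cis-sEV against 1803, 2054 and 2571 in Ctrl-sEV, or 1.45 on the log2 scale (standard error 0.23, edgeR adjusted p = 0.00538). miR-124-3p, the most neuron-specific miRNA, had 109, 25 and 88 reads against 0 in Ctrl-sEV. Against a floor of 3 reads summed over Ctrl-sEV it was at least 19.9-fold higher, a bound for counting error only. The paper remeasured miR-124-3p by RT-qPCR and did not name it among the miRNAs with stable upregulation in Cis-sEV. miR-153-3p and miR-129-2-3p also had 0 reads in Ctrl-sEV and were at least 146-fold and 13.6-fold higher, and miR-212-3p had 216 reads over Cis-sEV against 1, or 58.0 to 1 after scaling (95% counting interval 10.3 to 2303). miR-375-3p, which with miR-7 marks hormone-secreting cells, did not pass, with 346, 549 and 403 reads against 186, 119 and 138 and a change of -0.46 (standard error 0.60, edgeR adjusted p = 0.677). miR-9-5p did not pass either, at 0.15 (standard error 0.22). Summed over the list, Cis-sEV libraries held 14482 to 15581 scaled CPM, against 4914 to 8735 for Ctrl-sEV libraries, and miR-218-5p alone held most of the sum in Cis-sEV, with 11404.5 ± 351 scaled CPM (SD, n = 3) there and 4187 ± 1232 (SD, n = 3) in Ctrl-sEV.

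Of the hair cell cluster, miR-96-5p rose (2.08, standard error 0.47, edgeR adjusted p = 0.0142). It was not called without Ctrl-sEV replicate 1 or 2, nor with limma-voom, with or without weights per group. miR-183-5p and miR-182-5p were not called, at -0.49 and 0.18.

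**Figure D4:**
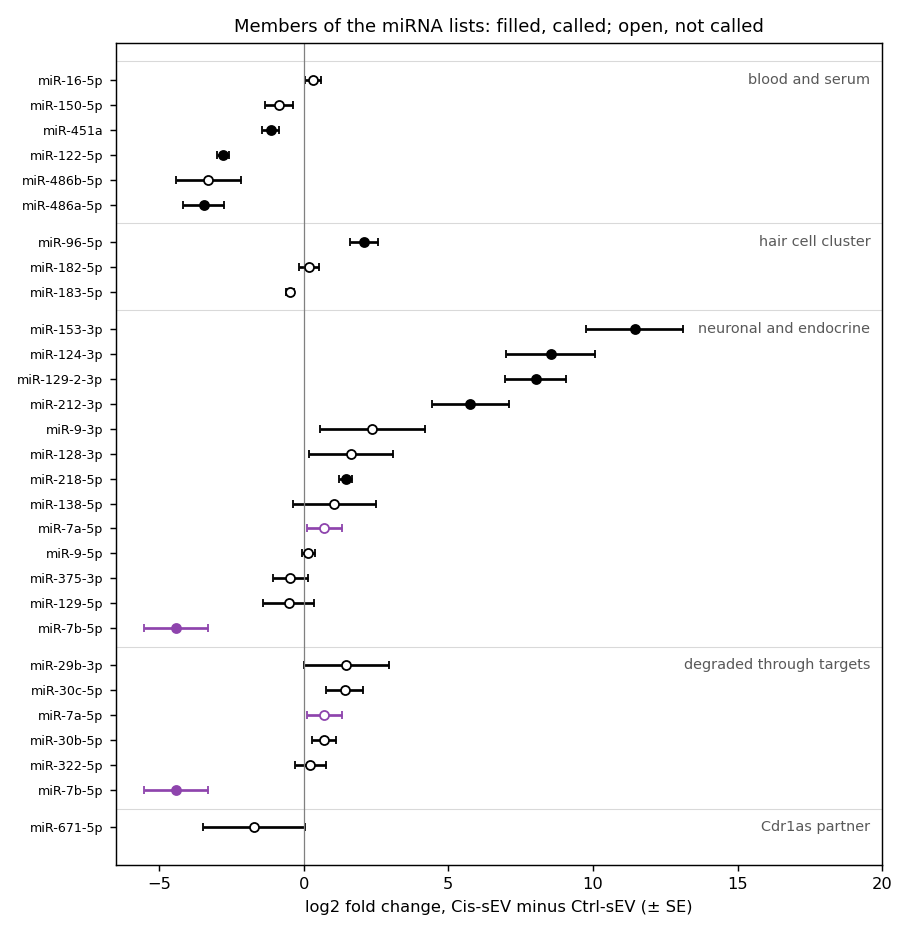
Fitted log2 fold change, Cis-sEV against Ctrl-sEV (horizontal axis, ± standard error) of the tested members of 5 lists of miRNAs, with the miR-7 guides in purple. Filled points were called by edgeR and open points were not; values above 5 belong to miRNAs with 0 or 1 read in Ctrl-sEV, whose fitted values are no estimate of a fold. mmu-miR-7b-5p, at -4.43, is lower than every other member shown.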

How the data were processed

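The authors isolated RNA of miRNA length from sEV, sequenced it on the DNBSEQ platform, aligned it with Bowtie2 to GRCm38.p6 per the labels and their methods, and deposited whole-number read counts per mature miRNA for 6 libraries, without normalization. A pair of deposited columns holds the authors' mean score (mean count) per group and was not used. Depth was 528952 to 1794175 miRNA reads per library. No source used here says which explants or cultures the 3 replicates of a group came from, so p-values measure the spread between these libraries.

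The test was edgeR's quasi-likelihood fit (edgeR 4.0.16 in R 4.3.3) with TMM factors, in place of the authors' MA-plot method. It was run on all 353 miRNAs that passed filterByExpr, with Benjamini-Hochberg adjustment and the limits of the authors' methods. To pass, a miRNA needed at least 15 reads over all libraries. It also needed a CPM, before TMM scaling, worth 10 reads at the median depth, in as many libraries as the smaller group holds. Alternatives used DESeq2 1.42.0 and limma 3.58.1. Shares have 95% Wilson or Clopper-Pearson intervals from scipy 1.17.1. The fitting code was tested on simulated data.

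The miRNAs named were the family, those with its seed, the 5 tested ones most correlated with mmu-miR-7b-5p, and 5 lists. The members and lists were chosen with earlier results of these data known. Sequences are from RefSeq (GRCm38.p6, 4 of 4 members matched) and GENCODE M21. miR-3529, on the opposite strand of Mir7-2, was not analysed here.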

Additional observations from a re-analysis of the deposited data

How the results depend on the processing

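The log2 fold change of mmu-miR-7a-5p was above 0 in all 19 alternatives run and was called in 2 of them, at 2.72 with the reads as deposited (adjusted p = 0.00760 from edgeR) and at 1.72 without Ctrl-sEV replicate 3. With 1 library left out it ran from 0.31 to 1.72. mmu-miR-7a-1-3p was not called with no filter (5.33), with limma-voom (4.79) or with the replicate block (5.66), and ran from 4.87 to 5.97 with 1 library left out. mmu-miR-7a-2-3p was not called with no filter (6.62), limma-voom (3.34) or the replicate block (6.70). DESeq2 gave it no adjusted p, and without a Cis-sEV library it did not pass the minimum of reads. For mmu-miR-7b-5p the log2 fold change was negative in all 19, at -2.46 with the reads as deposited and otherwise down to -4.81, and from -4.81 to -3.42 with 1 library left out. Without a library, its share of the guide reads stayed between 1.02 and 1.35% in Cis-sEV and between 26.0 and 34.1% in Ctrl-sEV, and over pooled reads it was 1.15% and 29.7%. Scaling moved the median change over the tested miRNAs, which was 0.44 under TMM but 0.80 under total miRNA reads, 0.33 under DESeq2 size factors, 0.22 under upper-quartile factors and 2.37 for unscaled reads.

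The miRNAs called higher and lower in Cis-sEV, 83 and 23, became 173 and 0 with the reads as deposited (194 at an unadjusted p under 0.05), 30 and 13 with limma-voom, 13 and 11 with the replicate block, 97 and 11 with total miRNA reads and 62 and 14 with no filter. With 1 library left out they ran from 40 to 144 and from 11 to 30: 40 and 13 without Cis-sEV replicate 1, 44 and 13 without Cis-sEV replicate 2, 59 and 11 without Cis-sEV replicate 3, and 144 and 25 without Ctrl-sEV replicate 3. Of the miRNAs on the 5 lists, 6 were called higher and 4 lower, with mmu-miR-7b-5p, chosen for its fall, among the 4. These became 14 and 0 with the reads as deposited, 3 and 1 with limma-voom and 2 and 1 with the replicate block, and ran from 4 to 8 and from 2 to 5 with 1 library left out. Without any 1 of the Cis-sEV libraries 2 were called lower.

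Whether libraries of the same replicate number were prepared together is not given in the sources used here, and 3 libraries per group cannot settle it. Their deviations from the group means correlated at -0.05, -0.18 and -0.01 for numbers 1, 2 and 3. No Cis-sEV library correlated best with the Ctrl-sEV library of its own number. The causes of these shifts were not tested.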

Other observations

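Passenger strands were compared with their guides across the table, in a comparison chosen after the values of mmu-miR-7a were seen. Of 64 hairpins with both arms counted and at least 100 reads of the major arm in each library, the minor arm took a smaller share in Ctrl-sEV than in Cis-sEV in 39 and a larger one in 25, over the pooled reads of each group. Among the 20 whose share in Cis-sEV would give 20 to 200 reads of the minor arm in Ctrl-sEV, 11 had a smaller share in Ctrl-sEV and 9 a larger one, and 9 had 0 to 3 reads there. Mir7-1 was one of these 9, with 2 reads of mmu-miR-7a-1-3p. The share of this arm in Cis-sEV, 5.92% of the reads of mmu-miR-7a-1-3p and mmu-miR-7a-5p, would give 50.1. As mmu-miR-7a-5p comes from both Mir7-1 and Mir7-2, this is not the share of a single gene. A scarce minor arm in Ctrl-sEV was thus shared with other hairpins, and in others the share was the larger one. As examples chosen after their values were seen, miR-322-3p, the passenger of miR-322-5p, was at 8.96% in Cis-sEV and had 0 reads in Ctrl-sEV, while miR-379-3p was at 1.10% in Cis-sEV and 9.67% in Ctrl-sEV. Hairpins that share a mature arm with another gene were not set apart. Hairpins are not replicates, and no test was made.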
